A study of Mus musculus with 59 samples.

Results

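The genes studied here carry thyroid hormone into brain cells, activate or inactivate it there, hold it in the cytosol or answer it in the nucleus. They are Slco1c1, Dio2, Dio3, Crym, Thra, Thrb and Hr. Their signals were followed through 59 Affymetrix whole-genome arrays of mouse brain, in 19 groups that span embryonic and adult ages and prenatal exposure to valproic acid or its amide. The members were taken as every probe set whose single gene symbol is one of these names, which gave 11 of 45101 probe sets, for 6 of 18194 measured genes. Dio2 and Thra had 3 probe sets each, Hr had 2, and Crym, Slco1c1 and Thrb had 1. Dio3, the deiodinase that inactivates thyroid hormone, had no such probe set and was not analysed here.

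Thyroid hormone leaves the thyroid mainly as the prohormone thyroxine, which the transporter OATP1C1, encoded by Slco1c1, carries across brain endothelium and choroid plexus in rodents. Inside the brain, type 2 deiodinase (Dio2), known from astrocytes and from tanycytes of the hypothalamus, removes an outer-ring iodine to give triiodothyronine, the active form, and type 3 deiodinase (Dio3) degrades it. Mu-crystallin (Crym) binds triiodothyronine in the cytosol, the nuclear receptors of Thra and Thrb bind it on DNA with retinoid X receptors as partners, and hairless (Hr) is a corepressor of these receptors whose own gene responds to the hormone in rodent brain. The pathway is known for setting the timing of neuronal migration, myelination and synapse formation in late fetal and postnatal brain.

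Pregnant C57BL/6 mice had been dosed by mouth daily from E12.5 to E14.5 (E, embryonic day) with 300 mg/kg valproic acid (VPA, an anticonvulsant and histone deacetylase inhibitor), 300 mg/kg valpromide (VPM) or methylcellulose (MC, 0.5% w/v), the vehicle. VPA is a branched carboxylic acid and VPM is its primary amide. The E14.5 samples were telencephalon taken 3 h after the final dose, and the E18.5 samples were hippocampus and forebrain, each from 3 VPA, 3 VPM and 3 MC samples. Adult hippocampus and cortex at 12 to 13 weeks came from VPA mice with a running wheel put in the cage after weaning (VPA+RW), VPA mice without one, MC mice with a wheel (MC+RW) and MC mice without one, with 3 samples of each, and hippocampus at postnatal day 84 (P84) came from 4 VPA and 4 MC mice. All groups shared the strain and the dosing procedure, and in the E18.5, adult and P84 groups only the embryo had been dosed, through its dam. The labels called the samples biological replicates without naming dams or litters, so p-values measure the spread between these samples, which may include littermates.

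The deposited signals were scaled so that each array had the same trimmed mean of 500, and signals are on this scale throughout. Before scaling the trimmed means ran from 197.6 to 419.4, and within a group the arrays correlated at 0.972 to 0.994 (Pearson's r on log2 signal, across probe sets). The number of arrays limits the precision of every value. One array stood apart: at E14.5, VPM replicate 3 had a summed signal of 21118 over the 13 measured choroid plexus markers, against 402 and 643 in the other VPM arrays and 405 to 531 in MC. Ttr (transthyretin, a thyroxine carrier made in the choroid plexus) read 19331 in that array and at most 105 in the other E14.5 arrays. The E14.5 tests that use VPM are therefore given with and without it. At E14.5 none of the 7 measured telencephalon identity genes lay under the floor of 32, and in MC mice 5 of 9 hippocampus markers at E18.5 (1 was lower) and 7 of 9 in adults were higher in the hippocampus than in forebrain or cortex. Of all genes tested, 9.8% were higher and 10.8% lower in hippocampus at E18.5, and 7.72% higher and 8.66% lower in adults. Each tissue is bulk, so fewer cells of a type and less RNA per cell cannot be told apart. Age and array set also cannot be told apart between E14.5, E18.5 and adult arrays. P84 is 12 weeks, within the adult range of 12 to 13 weeks, so P84 and adult hippocampus were separate sets of about one age. Between their MC arrays 9.84% of 14046 genes were called.

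Slco1c1 and Dio2 both rose in the VPM arrays at E14.5, as described further on, and 250 bases upstream of their annotated starts are therefore shown (RefSeq, GRCm38.p6). Promoter entries were at hand for 4 of the 7 genes. Capitals mark matches to TGACGTCA (the cAMP response element) and TATAAA (the TATA box), both searched on both strands together with AGGTCA, the half-site that thyroid hormone receptors and other nuclear receptors bind. The Dio2 sequence, on the minus strand at chr12:90739039-90739288, and the Slco1c1 sequence, on the plus strand at chr6:141524104-141524353, read 5′ to 3′ as follows.
Dio2: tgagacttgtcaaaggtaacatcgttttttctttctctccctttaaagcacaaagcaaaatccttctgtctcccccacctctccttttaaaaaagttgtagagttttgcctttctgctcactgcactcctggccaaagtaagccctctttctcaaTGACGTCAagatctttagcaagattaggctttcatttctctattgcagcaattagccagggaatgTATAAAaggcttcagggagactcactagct
Slco1c1: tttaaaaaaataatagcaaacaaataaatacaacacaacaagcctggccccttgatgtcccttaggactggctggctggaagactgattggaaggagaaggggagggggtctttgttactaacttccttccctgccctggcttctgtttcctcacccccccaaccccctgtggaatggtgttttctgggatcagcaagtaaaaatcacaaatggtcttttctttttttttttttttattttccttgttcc
The Dio2 window held TGACGTCA starting at -95 and TATAAA starting at -30 from the start site. The Slco1c1 window held none of the 3 motifs, and the Dio2 window held no AGGTCA. Among 32851 mouse promoter windows of the same length, 1.55% held TGACGTCA, 12.4% TATAAA and 14% AGGTCA. These are matches of letters in a window and not measured sites.

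At E14.5, VPM and VPA gave different pictures of this pathway. After VPM, Dio2, Slco1c1 and Crym rose above MC by 2.71-fold, 2.09-fold and 1.81-fold. After VPA, Hr, Crym and Slco1c1 fell below MC, and Dio2 had the same mean as in MC within its error. VPA-exposed telencephalon was lower than VPM-exposed telencephalon for Dio2, Crym, Slco1c1, Thra and Hr. Each of these differences comes from limma with Benjamini-Hochberg adjustment over 11068 genes, and the call threshold was an adjusted p of 0.05. The Crym rise after VPM, the Slco1c1 fall after VPA and the Thra difference were each lost on leaving out single arrays. Without VPM replicate 3 the Crym rise was 0.69 on the log2 scale and did not pass (adjusted p = 0.0752).

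Of the 6 measured genes, 5 passed the signal filter at E14.5 (100 or more in at least 3 of the 9 arrays) and Thrb did not. Dio2 reached 100 in the VPM arrays only, and Hr reached it in the VPM arrays and 2 MC arrays. Both therefore entered the test through the groups where they were high. The number of called genes among those tested supports nothing, nor do the adjusted p-values of Dio2 and Hr against those groups. The background at E14.5 was wide: 53.8% of all genes tested were called in VPA against MC (27% higher and 26.8% lower), 11.6% in VPM against MC (5.65% higher and 5.91% lower) and 54.5% in VPA against VPM (27.5% higher and 27% lower).

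**Figure D1:**
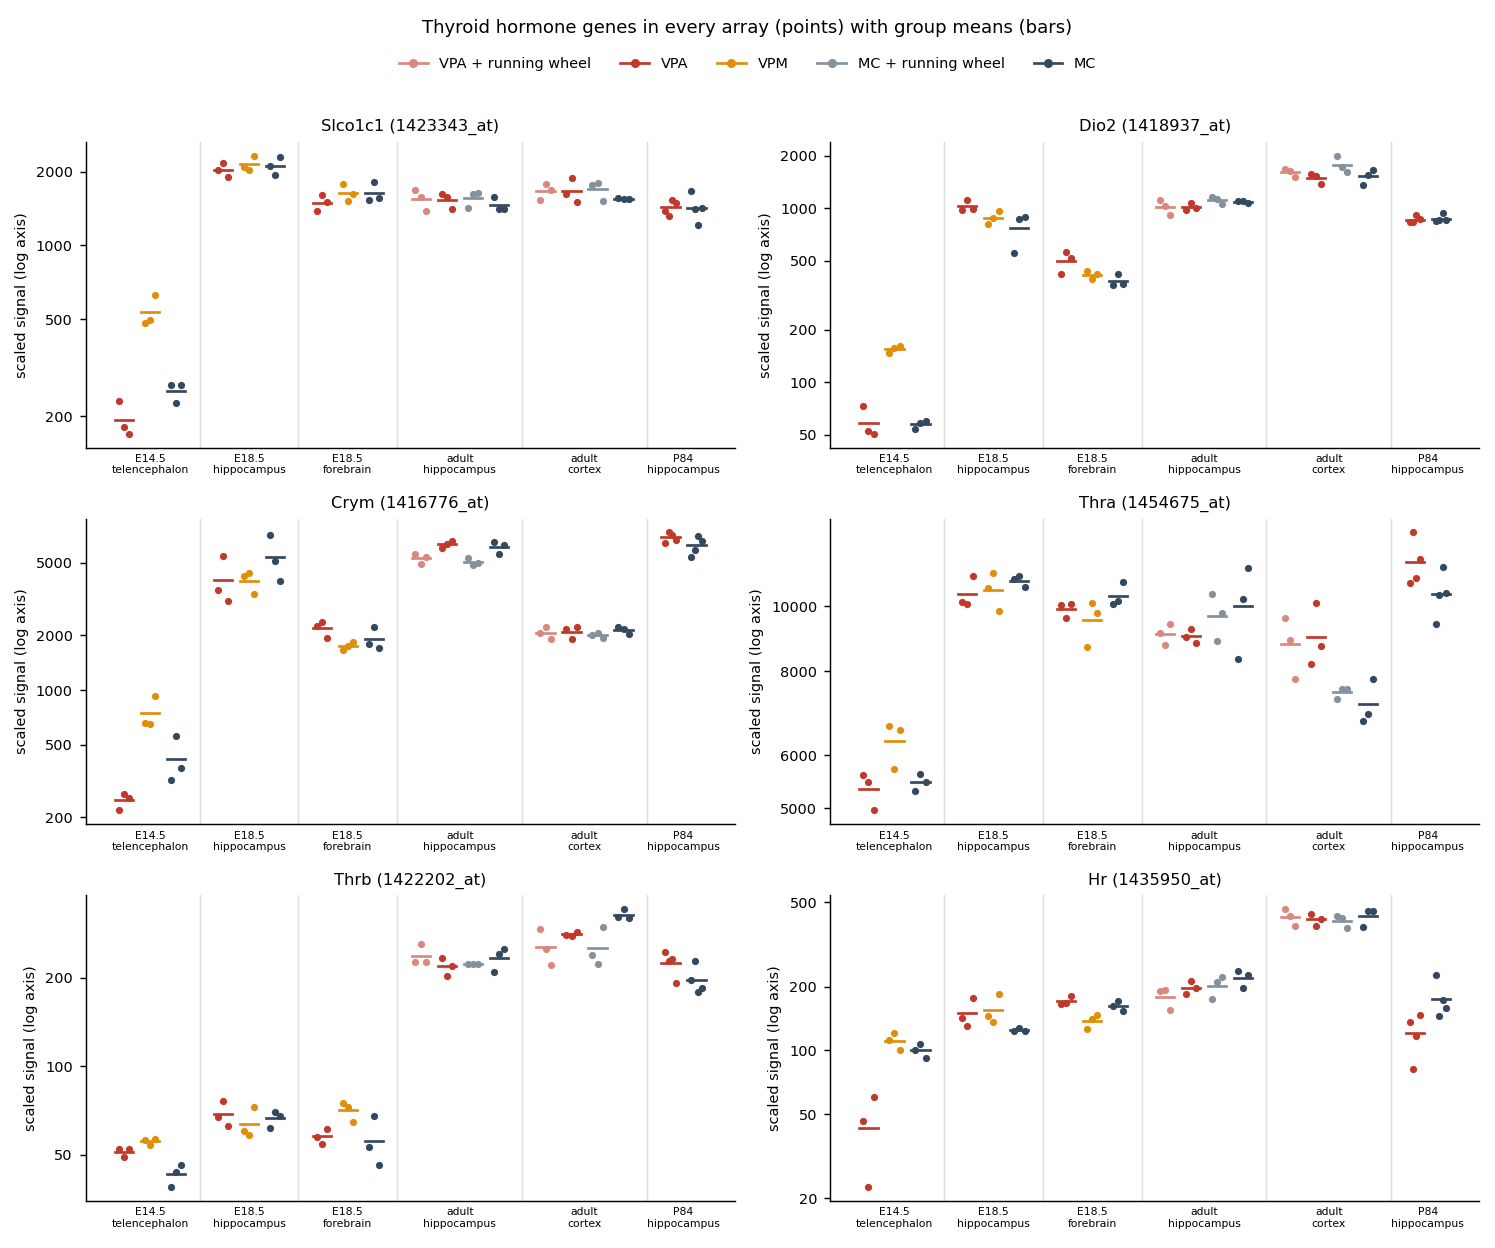
Scaled signal of the tested probe set of each measured gene in all 59 arrays (points, log axis) with group means (bars), by set and treatment. The VPM arrays at E14.5 lie above the VPA and MC arrays for Slco1c1 (482 to 629), Dio2 (148 to 162) and Crym (651 to 929), and the treatments overlap far more at the later ages.

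Slco1c1 (chr6:141524354-141570177, GRCm38.p6), the thyroxine transporter gene, had signals of 232, 181 and 170 in VPA arrays, 482, 493 and 629 in VPM arrays and 269, 226 and 269 in MC arrays. The 3 VPM arrays lay above every other E14.5 array, while VPA and MC overlapped, VPA replicate 1 lying above MC replicate 2. Means were 194 ± 32.9 after VPA, 535 ± 81.4 after VPM and 255 ± 24.5 after MC (SD, n = 3 each). VPM was higher than MC by 1.06 ± 0.148 on the log2 scale (SE, adjusted p = 0.00216), and VPA was lower than VPM by 1.46 ± 0.148, a log2 change of -1.46 (adjusted p = 8.12e-06). The fall after VPA against MC was small, with a log2 change of -0.40 ± 0.148 (1.32-fold, adjusted p = 0.0385). That call was lost without any one of 4 arrays, MC replicate 1 (adjusted p = 0.102), MC replicate 3 (0.11), VPA replicate 2 (0.103) or VPA replicate 3 (0.137). It was also lost on the deposited scale (0.0629), with no filter (0.0765) and with the inferred sex as a covariate (0.0683).

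Slco1c1 is also a gene of the choroid plexus in rodents, and its highest VPM value, 629, was in the array with the choroid plexus signal. Without that array the VPM rise was 0.94 ± 0.155 (adjusted p = 0.0128), and VPA remained lower than VPM with a log2 change of -1.34 (adjusted p = 6.21e-05). The other VPM arrays, at 482 and 493, had choroid plexus sums of 402 and 643, against 405 to 531 in MC. Slco1c1 is known from brain endothelium as well, and the 11 endothelial markers tested at E14.5 gave no call in VPM against MC, with or without that array, at summed signals of 7028 to 7487 in VPM and 6661 to 7198 in MC arrays. The endothelial gene Cldn5 read 625, 686 and 513 in VPA, 939, 1120 and 1092 in VPM and 791, 809 and 884 in MC. These values did not overlap. Pecam1 read 229, 246 and 235 in VPA, 202, 251 and 260 in VPM and 262, 303 and 238 in MC, with overlap throughout. In VPA against MC, 1 endothelial marker was higher and 4 were lower, beside 27% and 26.8% of all genes, at sums of 6825 to 7089 in VPA. The part of endothelial content in the Slco1c1 rise and fall was not tested.

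Dio2 (chr12:90724552-90739038), the activating deiodinase, gave 72.8, 52.4 and 50.7 in VPA arrays, 148, 157 and 162 in VPM arrays and 53.6, 58.6 and 60.1 in MC arrays with its tested probe set, 1418937_at. The VPM arrays stood apart with no overlap, and the VPA and MC arrays were mixed at a low signal. Dio2 averaged 156 ± 7.08 after VPM and 57.5 ± 3.42 after MC (SD, n = 3 each), a log2 change of 1.44 ± 0.205 (adjusted p = 0.00237). VPA averaged 58.6 ± 12.3 and was lower than VPM with a log2 change of -1.43 ± 0.205 (adjusted p = 0.000112). Dio2 entered this fit only through the VPM arrays, where it was high, so these adjusted p-values support nothing. For VPA against MC the Dio2 log2 change was 0.01 ± 0.205 (95% interval -0.44 to 0.46, adjusted p = 0.969).

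Both other Dio2 probe sets were highest in VPM arrays. Probe set 1418938_at read 73.7, 43.1 and 49.8 in VPA, 85, 76.1 and 92.1 in VPM and 69.7, 48.9 and 57 in MC arrays. Probe set 1426081_a_at read 41.3, 39.3 and 32.2 in VPA, 72.2, 56 and 68.8 in VPM and 17, 48.5 and 29.3 in MC arrays. In each, the VPM values did not overlap those of VPA or MC, although no array reached the filter and neither probe set was tested. Across the 59 arrays these probe sets followed the tested one at r = 0.9086 and r = 0.9688 (Pearson, log2 signal, arrays sharing age and tissue, given as a description). A lncRNA gene, Gm26512, overlaps Dio2 by 939 bases in the annotation.

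Without VPM replicate 3, Dio2 no longer reached 100 in 3 arrays and fell out of the test. The filter was then set to 2 arrays, an alternative chosen after seeing the data. Dio2 was higher in VPM than in MC by 1.41 ± 0.247 (adjusted p = 0.0151). It was lower in VPA than in VPM with a log2 change of -1.40 (adjusted p = 0.000929). Dio2 entered that fit only through the 2 VPM arrays where it was high, so these adjusted p-values support nothing. With no filter and VPM replicate 3 kept, limma gave 1.44 for VPM against MC (adjusted p = 0.00485). For VPA against VPM it gave -1.43 (adjusted p = 0.00013). Dio2 is known from astrocytes. Of 7 astrocyte markers tested, 1 was higher and 3 were lower both in VPA and in VPM against MC, and without VPM replicate 3 the VPM count was 0 higher and 2 lower. Their summed signal was 9547 to 10152 in VPA, 10550 to 10987 in VPM and 11820 to 12836 in MC arrays. In VPM without that array, Fgfr3 and Gja1 fell with log2 changes of -0.70 and -0.66, while Aldh1l1 (0.46, adjusted p = 0.0605) and Slc1a3 (0.45, adjusted p = 0.131) did not pass. The astrocyte gene Aqp4 read from 29.1 (VPA replicate 3) to 50.4 (VPM replicate 1) in the E14.5 arrays, near the floor. Whether the tested markers reflect astrocytes at this age was not tested. Nor was the part of astrocyte content in the Dio2 values.

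Crym (chr7:120186380-120201989), which encodes mu-crystallin, gave 219, 270 and 255 in VPA arrays, 656, 651 and 929 in VPM arrays and 320, 558 and 372 in MC arrays. The 3 treatments did not overlap, in the order VPM, MC, VPA, and MC replicate 2 lay closest to the VPM arrays. Means were 248 ± 26.3 after VPA, 745 ± 159 after VPM and 417 ± 125 after MC (SD, n = 3 each). Crym was lower in VPA than in MC with a log2 change of -0.71 ± 0.196 (1.64-fold, adjusted p = 0.00888). It was lower in VPA than in VPM with a log2 change of -1.57 ± 0.196 (adjusted p = 3.85e-05).

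The Crym rise in VPM over MC, 0.86 ± 0.196 (adjusted p = 0.0163), depended on single arrays. Without VPM replicate 3, which had the highest Crym signal, it was 0.69 ± 0.2 (adjusted p = 0.0752). Without MC replicate 1 or MC replicate 3 the adjusted p was 0.0538 or 0.0607, and with no filter it was 0.0554. The fall in VPA against VPM without VPM replicate 3 was -1.40 (adjusted p = 0.000243).

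**Figure D2:**
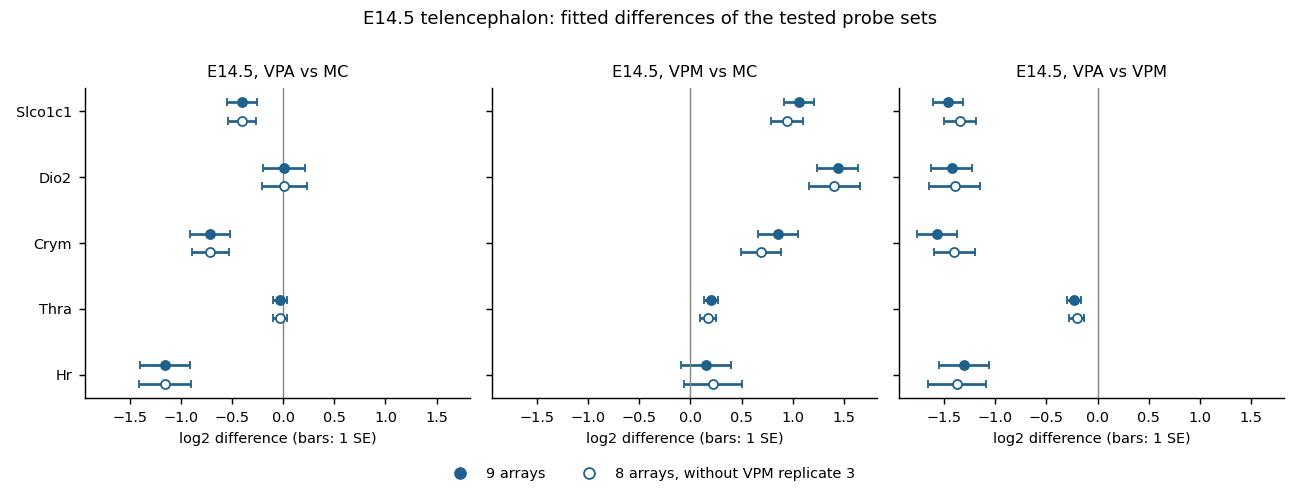
Fitted log2 differences (points) with 1 SE (bars) of the 5 genes tested at E14.5, from 9 arrays (filled) and from 8 arrays without VPM replicate 3 and with the filter in at least 2 arrays (open). Leaving the array out moved the VPM against MC difference of Crym most, from 0.86 to 0.69, and left that of Dio2 at 1.41.

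Thra (chr11:98740776-98769006), the gene of thyroid hormone receptor alpha, had strong signals that differed little with its tested probe set, 1454675_at. It read 5607, 5481 and 4969 in VPA arrays, 6643, 5720 and 6547 in VPM arrays and 5306, 5630 and 5478 in MC arrays. VPM lay above both other treatments without overlap, and VPA and MC overlapped. Thra was lower in VPA than in VPM, with a log2 change of -0.23 ± 0.068 (adjusted p = 0.0117), a call lost without VPA replicate 3 (adjusted p = 0.0574) or VPM replicate 1 (0.0515) and on the deposited scale (0.166). Without VPM replicate 3 it was -0.21 (adjusted p = 0.0479). Neither compound differed from MC at the threshold, with log2 changes of -0.03 ± 0.068 for VPA (95% interval -0.18 to 0.12, adjusted p = 0.708) and 0.20 ± 0.068 for VPM (adjusted p = 0.0789, and 0.231 without VPM replicate 3).

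The other Thra probe sets disagreed with the first one on VPA. Probe set 1426997_at read 456, 371 and 389 in VPA, 729, 612 and 732 in VPM and 534, 539 and 579 in MC arrays, and it fell in VPA against MC with a log2 change of -0.45 ± 0.104 (adjusted p = 0.00398). Probe set 1443952_at read 484, 400 and 523 in VPA, 735, 595 and 808 in VPM and 751, 795 and 645 in MC arrays, and it fell in VPA against MC with a log2 change of -0.64 ± 0.133 (adjusted p = 0.00191). In both, every VPA array lay below every MC array. All 3 probe sets were lower in VPA than in VPM, those 2 with log2 changes of -0.77 (adjusted p = 9.28e-05) and -0.60 (adjusted p = 0.00281) in the fit on every probe set. These were, without VPM replicate 3, -0.73 (adjusted p = 0.000698) and -0.50 (adjusted p = 0.0147), with the filter in 2 arrays. Over 59 arrays they followed the tested probe set at r = 0.5046 and r = 0.4300. Thra overlaps its antisense neighbour Nr1d1 by 1075 bases in the annotation, and which transcripts each probe set reads was not tested.

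Thrb (chr14:17659225-18040097), the gene of receptor beta, read 52.2, 49 and 52.5 in VPA arrays, 56.1, 54 and 56.8 in VPM arrays and 38.9, 43.8 and 46.2 in MC arrays. Both compounds lay above MC without overlap, at signals under the filter where the gene was not tested. With no filter, the log2 changes of 0.26 for VPA (adjusted p = 0.0592) and 0.38 for VPM (adjusted p = 0.0513, and 0.36 at 0.142 without VPM replicate 3) against MC did not pass. The receptor beta gene had a low signal in each E14.5 group.

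Hr (chr14:70554056-70573548), the corepressor gene, gave 46.6, 22.6 and 60.2 in VPA arrays, 111, 121 and 100 in VPM arrays and 100, 108 and 92.1 in MC arrays. Every VPA array lay below every VPM and MC array, and VPM and MC overlapped. Means were 43.1 ± 19 after VPA, 111 ± 10.5 after VPM and 100 ± 7.8 after MC (SD, n = 3 each). Hr fell in VPA against MC with a log2 change of -1.16 ± 0.243 (adjusted p = 0.00175) and in VPA against VPM with -1.31 ± 0.243 (adjusted p = 0.000742, and -1.38 at an adjusted p of 0.00233 without VPM replicate 3). Hr entered these fits through VPM and MC arrays, where it was high, so these adjusted p-values support nothing. With no filter, limma gave -1.16 (adjusted p = 0.00267) for VPA against MC and -1.31 (adjusted p = 0.00135) for VPA against VPM. VPM against MC gave 0.15 ± 0.243 (adjusted p = 0.744, and 0.22 at 0.711 without VPM replicate 3). The second Hr probe set, 1422110_at, was also lowest in VPA arrays, with 35.2, 49.7 and 38.8 in VPA, 66.6, 71.4 and 73.1 in VPM and 76.9, 79.1 and 59.1 in MC arrays, all under the filter.

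**Figure D3:**
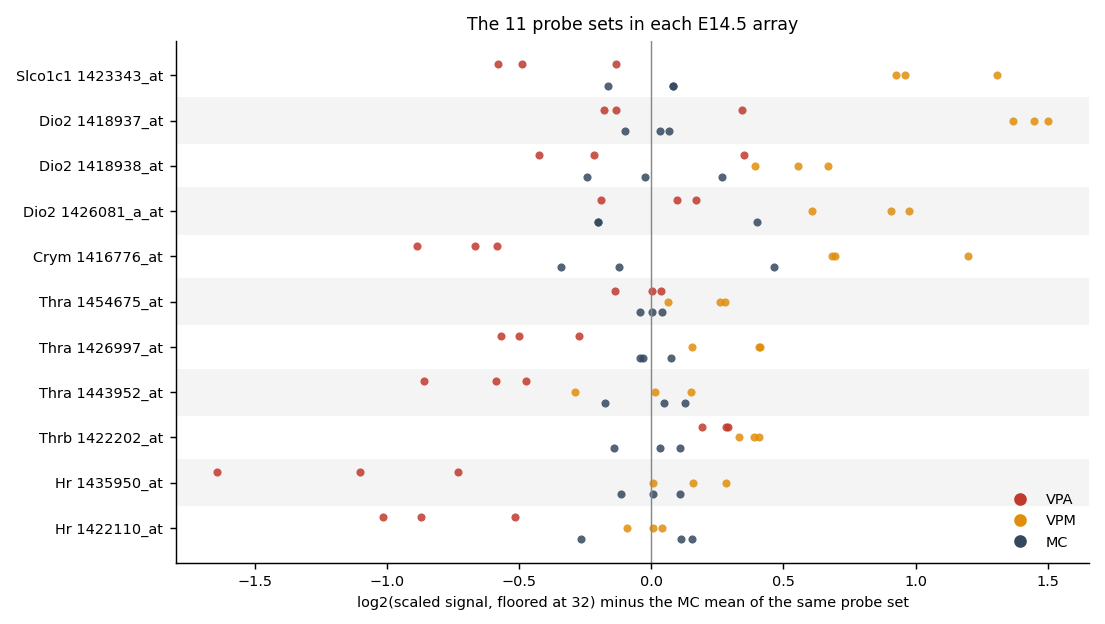
All 11 probe sets in each E14.5 array, as log2 scaled signal (floored at 32) minus the mean of the MC arrays for the same probe set. The 3 Dio2 probe sets share their high VPM points and the 2 Hr probe sets their low VPA points, while the Thra probe sets differ in where the VPA points fall.

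Non-overlap between treatments was itself frequent at E14.5, found in 60.2% of all genes tested for VPA against MC, 32.8% for VPM against MC and 60.7% for VPA against VPM. Without VPM replicate 3 and with the filter in 2 arrays, 4.84% of 11211 genes were called in VPM against MC and 48.6% in VPA against VPM. For the marker counts that follow, 27% of all genes tested were called higher and 26.8% lower in VPA against MC. In VPM against MC these shares were 5.65% and 5.91%. Of 7 neocortex markers tested, 4 were lower and 1 higher in VPA against MC. Their summed signals were 10498 to 11324 in VPA, 16011 to 17527 in VPM and 16048 to 16366 in MC arrays. Thalamus and diencephalon markers gave 1 higher and 2 lower of 6 in VPA and 0 higher and 3 lower of 6 in VPM against MC (2 lower without VPM replicate 3), at sums of 2750 to 3032 in VPA, 2810 to 3723 in VPM and 3264 to 4584 in MC. Telencephalon identity genes gave 0 higher and 5 lower of 7 in VPA and 0 higher and 4 lower of 7 in VPM against MC (2 lower without VPM replicate 3), at sums of 13434 to 14323 in VPA, 14817 to 15337 in VPM and 16141 to 18437 in MC arrays, with no overlap of either compound with MC. Oligodendrocyte lineage markers gave 1 higher and 0 lower of 4 in VPA and 2 higher and 0 lower of 4 in VPM against MC, at sums over 9 genes of 1577 to 1905 in VPA, 1644 to 2250 in VPM and 1058 to 1436 in MC arrays. The VPM calls were Pdgfra and Olig1, at 1.28 and 0.95 without VPM replicate 3 (adjusted p = 0.0352 and 0.0201). The part of such shifts in the values of the thyroid hormone genes was not tested.

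The wider pathway at E14.5 was read from 4 lists. Genes known to respond to thyroid hormone in rodent brain rose in 6 of 10 tested after VPA and 4 of 10 after VPM, with none lower, and their median log2 changes against MC were 0.804 and 0.35, beside -0.00304 and -0.00566 for all genes tested. Of all genes tested, 27% were called higher after VPA and 5.65% after VPM, and Klf9 and Rasd2 reached the filter only through arrays where they were high, so the counts describe the list and support nothing. Klf9, a transcription factor gene induced by the hormone in rodents, read 306, 337 and 384 in VPA arrays, 71.1, 82 and 120 in VPM arrays and 23.7, 54.8 and 52.2 in MC arrays, with no overlap among the 3. It rose by 2.92 ± 0.252 after VPA (adjusted p = 3e-06) and by 0.98 ± 0.252 after VPM (adjusted p = 0.0279). As Klf9 entered the test through arrays where it was high, these adjusted p-values support nothing. Rasd2, a striatal small GTPase gene, rose by 2.59, Dbp, a clock output gene, by 1.18, and Nefm, a neurofilament gene, by 0.68 after VPA. After VPM, Nefm rose by 0.41, Camk4, a calcium-dependent kinase gene, by 0.40, and Nrgn, the gene of the synaptic protein neurogranin, by 0.66.

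Klf9 and Rasd2 reached the filter through the VPA arrays and VPM replicate 3. Without VPM replicate 3, none of the 10 responding genes and none of the 13 partners passed in VPM against MC, where Klf9 was at 0.76 (adjusted p = 0.116), Nefm at 0.39 (adjusted p = 0.056), Camk4 at 0.32 (adjusted p = 0.113) and Nrgn at 0.52 (adjusted p = 0.176). Hr, which is itself a responding gene in rodents, went the other way after VPA, and Dio2 had no call there. VPA against VPM gave 5 responding genes higher and 1 lower of 10, beside 27.5% and 27% of all genes, and 5 higher and 0 lower without VPM replicate 3.

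Other thyroid hormone transporters were split after VPA, with 2 higher and 2 lower of 6 tested, beside 27% and 26.8% of all genes. None was called after VPM. Slco2b1, an organic anion transporter gene, read 36.4, 36 and 28.5 in VPA arrays, 120, 169 and 209 in VPM arrays and 121, 240 and 97.3 in MC arrays, and fell after VPA with a log2 change of -2.03 ± 0.314 (adjusted p = 0.000212). Slco3a1, of the same family, fell by 0.42, the amino acid and iodothyronine carrier Slc7a5 rose by 0.63, and Slc16a10, the aromatic amino acid transporter gene, rose by 0.92 (it passed the filter in the VPA arrays alone).

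Secisbp2, whose product is needed to insert selenocysteine into deiodinases, read 167, 187 and 202 in VPA arrays, 453, 530 and 441 in VPM arrays and 476, 413 and 499 in MC arrays. It fell after VPA without overlap (log2 change -1.32 ± 0.119, adjusted p = 3.96e-06), and after VPM its log2 change was 0.04 (adjusted p = 0.878, and 0.09 at 0.765 without VPM replicate 3). Among receptor partners, corepressors and coactivators, 2 were higher and 6 lower of 13 after VPA (median -0.212), and 2 were higher and none lower of 13 after VPM (median -0.0232). The shares of all genes tested were 27% higher and 26.8% lower after VPA, and 5.65% and 5.91% after VPM. The coactivator gene Crebbp fell by 1.03, Tbl1x and Tbl1xr1, subunits of the corepressor complex, by 0.44 and 0.43, and the coactivator gene Ncoa2 by 0.42 after VPA. After VPM, the coactivator gene Ncoa1 rose by 0.26 and the retinoid X receptor gene Rxrg by 1.00, and without VPM replicate 3 these were 0.19 (adjusted p = 0.126) and 0.94 (adjusted p = 0.136).

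**Figure D4:**
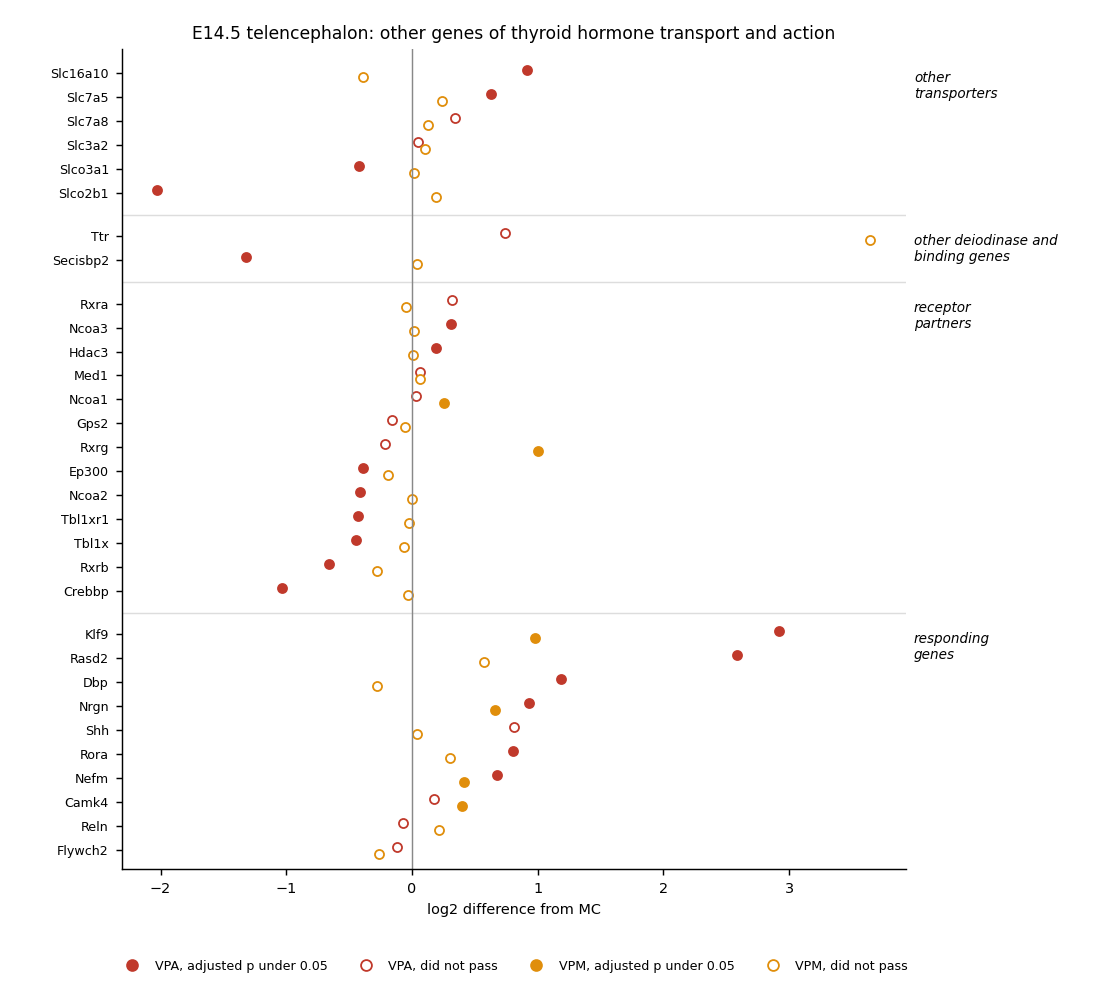
Log2 differences from MC at E14.5 for the tested genes of the 4 lists, for VPA and VPM (filled where the adjusted p was under 0.05, open otherwise). The 6 responding genes called for VPA lie to the right, with Klf9 at 2.92 and Rasd2 at 2.59, while Slco2b1 at -2.03 and Secisbp2 at -1.32 lie furthest left. Slco2b1 reached the filter through VPM and MC arrays alone.

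By E18.5 no measured thyroid hormone gene was called between treatments in hippocampus or forebrain, nor in adult or P84 brain. The 17 comparisons within one age and tissue held 96 tests of a member gene, with 0 calls by limma, 13 at an unadjusted p under 0.05, and a largest log2 change of 0.56 in either direction. Apart from these, the difference of the VPA effect between E18.5 hippocampus and forebrain called 0 of 5 members and 0% of 11863 genes. Its member values ran from -0.619 to 0.173, with 1 at an unadjusted p under 0.05 (limma, smallest adjusted p = 0.519). Few genes of any kind were called at these ages. In E18.5 hippocampus 0% of 11540 genes were called in VPA against MC (1507 at an unadjusted p under 0.05), 0.00867% in VPM against MC and 0% in VPA against VPM (1717 at an unadjusted p under 0.05). In E18.5 forebrain the shares were 2.16% of 11507 genes in VPA against MC, 0% in VPM against MC (626 at an unadjusted p under 0.05) and 0.53% in VPA against VPM. Adult hippocampus had 0% called of 13466 genes in each of its 5 comparisons and P84 hippocampus 0%, and adult cortex had 0% to 0.022% of 13606.

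Of the E18.5 differences at an unadjusted p under 0.05, that of Dio2 in hippocampus was the largest. In hippocampus it read 977, 1121 and 986 in VPA arrays, 814, 874 and 957 in VPM arrays and 552, 863 and 892 in MC arrays. The VPA arrays were above all MC arrays, and MC replicate 1 was the lowest of the 9. VPA averaged 1028 ± 80.9 and MC 769 ± 189 (SD, n = 3 each), with a log2 change of 0.45 ± 0.156 that did not pass (adjusted p = 0.287), beside 17.8% of all genes without overlap in this comparison. In forebrain Dio2 read 420, 560 and 514 in VPA arrays, 438, 390 and 418 in VPM arrays and 364, 421 and 365 in MC arrays, VPA and MC overlapping, and the log2 change of 0.37 ± 0.11 for VPA against MC did not pass (adjusted p = 0.122).

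Slco1c1 was level across treatments in both E18.5 tissues. In hippocampus it ranged over 1901 to 2163 in VPA, 2032 to 2322 in VPM and 1940 to 2288 in MC arrays, and in forebrain over 1379 to 1600 in VPA, 1513 to 1777 in VPM and 1534 to 1812 in MC arrays, with overlap throughout. The choroid plexus sum differed widely among these arrays, at 24107 to 28967 in VPA, 1533 to 29653 in VPM and 2235 to 32198 in MC hippocampus, and at 853 to 5339 in VPA, 21124 to 25485 in VPM and 18681 to 26875 in MC forebrain. VPA forebrain therefore held far less choroid plexus signal than VPM or MC forebrain, and Ttr was lower there with a log2 change of -4.35 (adjusted p = 0.0142) against MC. Its part in the forebrain values was not tested.

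Crym overlapped between VPA or VPM and MC at E18.5. It read 3531, 5413 and 3099 in VPA, 4213, 4374 and 3350 in VPM and 7078, 5101 and 3949 in MC hippocampus, so that all 3 groups overlapped and MC replicate 1 was highest. In forebrain it read 2245, 2368 and 1918 in VPA, 1654, 1734 and 1835 in VPM and 1788, 2218 and 1707 in MC arrays. VPA and VPM did not overlap there, and the log2 change of 0.32 did not pass (adjusted p = 0.199, with 17.1% of all genes not overlapping).

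For the 2 compounds at E18.5, the log2 differences of VPA from VPM in hippocampus had 95% intervals of -0.12 to 0.56 for Dio2, -0.51 to 0.47 for Crym, -0.25 to 0.09 for Slco1c1, -0.15 to 0.11 for Thra and -0.42 to 0.32 for Hr. These intervals leave room for differences of the sizes they span and do not show that the compounds acted alike. In forebrain Hr read 166, 167 and 181 in VPA and 126, 141 and 146 in VPM arrays, without overlap, and its log2 difference of 0.32 did not pass (adjusted p = 0.303).

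Whether the E14.5 effects differed from those in E18.5 forebrain was tested in one model over both sets. The VPM effect was larger at E14.5 for Dio2 by 1.32 (adjusted p = 0.00203), for Slco1c1 by 1.06 (adjusted p = 0.00319) and for Crym by 0.98 (adjusted p = 0.0299), where 3.61% of 11772 genes were called. Without VPM replicate 3 these were 1.29 (adjusted p = 0.00741) for Dio2, 0.94 (adjusted p = 0.0096) for Slco1c1 and 0.81 (adjusted p = 0.0814) for Crym. The Crym call was also lost without each of 5 other arrays, E14.5 MC replicate 1 (0.0616) or 3 (0.067), E18.5 forebrain MC replicate 2 (0.0759) and E18.5 forebrain VPM replicate 1 (0.0664) or 2 (0.0628). The VPA effect was lower at E14.5 for Hr, with a difference of -1.24 (adjusted p = 0.000985), and for Crym, with -0.91 (adjusted p = 0.00559), where 39.1% of genes were called. On the deposited scale the VPM differences of Dio2 (0.93, adjusted p = 0.581), Slco1c1 (1.00, adjusted p = 0.11) and Crym (0.92, adjusted p = 0.214) and the VPA difference of Hr (-0.56, adjusted p = 0.378) did not pass. The tissue label differed between the ages as well, telencephalon at E14.5 and forebrain at E18.5. So did the time since the last dose at E14.5, which was 3 h for the E14.5 samples and days for the E18.5 samples. Age, tissue, array set and time since dosing cannot be told apart here.

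In E18.5 forebrain 3 of 12 tested genes that respond to thyroid hormone were higher after VPA than after MC and none was lower, beside 1.09% of all genes higher and 1.06% lower. These were Nrgn (0.66, adjusted p = 0.00454), Klf9 (0.66, adjusted p = 0.00497) and Camk4 (0.33, adjusted p = 0.0295). On the deposited scale the changes were 0.67, 0.67 and 0.34 and none of the 3 calls was kept. The Camk4 call was also lost without MC replicate 1 (adjusted p = 0.0954) or 3 (0.107) or VPA replicate 1 (0.0847) or 2 (0.0863), and with no filter (0.0566), no trend (0.0688), the inferred sex (0.0574) or the 2 groups alone (0.0518). No transporter of 6 and no receptor partner of 13 was called there. In hippocampus none of the 4 lists gave a call in VPA against MC.

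Adult Crym was lower in both running groups of the hippocampus, without passing. It read 5550, 4935 and 5399 in VPA+RW, 5996, 6356 and 6546 in VPA, 5301, 4877 and 4999 in MC+RW and 6485, 5588 and 6221 in MC arrays. Runners and non-runners of the same prenatal treatment did not overlap. The log2 change with running was -0.25 ± 0.0629 in VPA mice (unadjusted p = 0.00145, adjusted p = 0.256, limma) and -0.27 ± 0.0629 in MC mice (unadjusted p = 0.000887, adjusted p = 0.29, limma). The 2 changes differed by 0.02 (95% interval -0.18 to 0.21, adjusted p = 0.994). Beside this, 0% of 13466 genes were called in either running comparison (1153 at an unadjusted p under 0.05 in VPA and 1174 in MC mice), and 15.6% and 12.8% of genes did not overlap.

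In adult cortex, Thra read 9613, 8920 and 7781 in VPA+RW, 8198, 10121 and 8715 in VPA, 7272, 7532 and 7539 in MC+RW and 6755, 6908 and 7797 in MC arrays. With this probe set, 1454675_at, VPA+RW lay above MC+RW and VPA above MC without overlap (15.3% of genes did not overlap with a wheel, and 0.022% were called). Both other Thra probe sets overlapped between VPA and MC without a wheel, with log2 changes of 0.07 for 1426997_at and -0.03 for 1443952_at, neither passing. With a wheel they gave -0.01 and 0.21, which did not pass, and overlapped as well. VPA without a wheel averaged 9011 ± 995 and MC 7153 ± 563 (SD, n = 3 each), with a log2 change of 0.33 ± 0.0871 that did not pass (adjusted p = 0.24, with 0.00735% of genes called and 15.7% not overlapping). Thrb was lower in MC+RW than in MC cortex without overlap, at 240, 223 and 297 against 322, 342 and 318, and this too did not pass (log2 change -0.38 ± 0.132, adjusted p = 0.257, with 0.0147% of genes called and 17.8% not overlapping). Without MC+RW replicate 3 it was -0.50 (adjusted p = 0.0826), with 0.98% of genes called. The difference of the VPA effect on Thra between adult hippocampus and cortex was -0.47 (adjusted p = 0.469, with 0% of 14010 genes called by limma and 995 at an unadjusted p under 0.05).

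Slco1c1, Dio2 and Hr varied little with treatment in adult hippocampus. Slco1c1 ranged over 1384 to 1675 in VPA+RW, 1410 to 1627 in VPA, 1416 to 1634 in MC+RW and 1409 to 1578 in MC hippocampus. Dio2 ranged over 908 to 1110 in VPA+RW, 970 to 1068 in VPA, 1062 to 1154 in MC+RW and 1068 to 1103 in MC hippocampus, and Hr over 155 to 193, 184 to 212, 175 to 221 and 197 to 238 in the same order of groups. The hippocampus groups overlapped in part for each gene. In cortex the group means, in the same order, were 1670, 1670, 1695 and 1550 for Slco1c1 and 1610, 1499, 1777 and 1526 for Dio2. For Hr they were 427, 416, 410 and 433. No adjusted p passed in either tissue.

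At P84, Hr was lower on average in VPA hippocampus, with 135, 81.4, 117 and 148, against 226, 145, 172 and 159 in MC hippocampus. VPA replicate 4 overlapped MC replicate 2, and the log2 change of -0.56 ± 0.211 did not pass (adjusted p = 0.902, with 0% of 13036 genes called by limma and 645 at an unadjusted p under 0.05). The second Hr probe set had a log2 change of 0.06 there. Crym averaged 6872 ± 402 in VPA and 6209 ± 740 in MC, and Dio2 read 833, 830, 910 and 865 in VPA against 846, 856, 933 and 851 in MC (n = 4 each), with overlap for both genes.

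The strongest differences in the pathway were between ages, read here in MC arrays alone, in one fit of all MC groups. From E14.5 telencephalon to E18.5 forebrain the transporter, the activating deiodinase and the binding protein rose together. Slco1c1 was 6.42-fold higher at E18.5 (log2 change 2.68 ± 0.1, adjusted p = 3.01e-13), Dio2 6.67-fold (2.74 ± 0.134, adjusted p = 7.08e-12) and Crym 4.67-fold (2.22 ± 0.184, adjusted p = 6.92e-09). With their tested probe sets, Thra was 1.9-fold higher (0.92 ± 0.0887, adjusted p = 5.04e-08) and Hr 1.62-fold (0.70 ± 0.151, adjusted p = 0.000633), where 54.1% of 14046 genes were called and 30.2% were higher. The other Thra probe sets did not share a rise of that size. MC means at E14.5 and in E18.5 forebrain were 551 and 702 for 1426997_at, and 730 and 674 for 1443952_at. With quantile normalization the Hr change was 0.36 (adjusted p = 0.0709). The second Hr probe set, 1422110_at, showed no rise, with MC means of 71.7 at E14.5 and 70.3 in E18.5 forebrain, under the filter. Thrb, at 53.1, 67.9 and 46 in E18.5 forebrain against 38.9, 43.8 and 46.2 in E14.5 telencephalon, did not pass (log2 change 0.36, adjusted p = 0.0681).

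**Figure D5:**
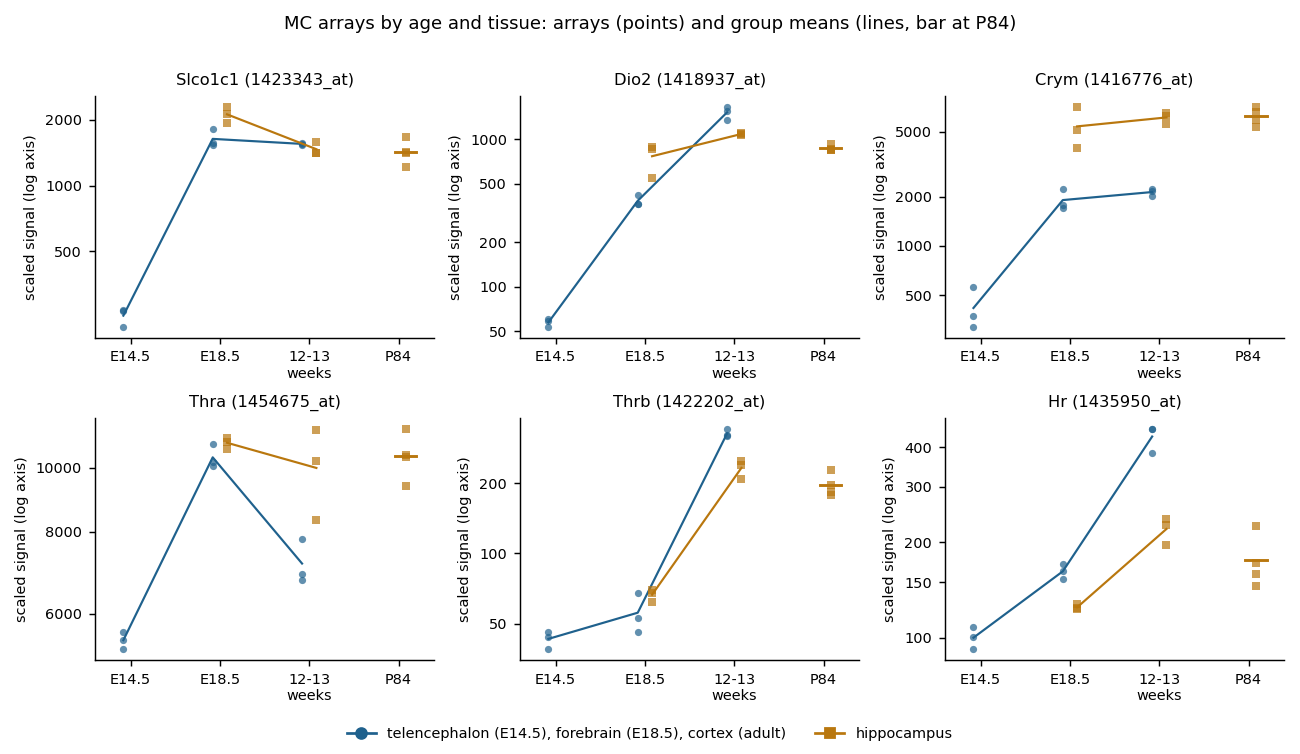
Scaled signal (log axis) of the 6 measured genes in MC arrays by age, for telencephalon, forebrain and cortex (circles) and for hippocampus (squares), with lines through group means and a bar at P84. Slco1c1, Dio2 and Crym climb between E14.5 and E18.5, and Thrb climbs between E18.5 and the adult.

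From E18.5 to adult, the gene of receptor beta was higher in each comparison. In MC arrays Thrb reached the filter of 100 in adult and P84 arrays alone, so it entered the fit through the groups where it was high. It read 322, 342 and 318 in adult cortex against 53.1, 67.9 and 46 in E18.5 forebrain, with no overlap, and was 5.96-fold higher (log2 change 2.58 ± 0.161, adjusted p = 2.42e-11). In hippocampus it read 209, 241 and 250 in adults against 61.8, 69.7 and 68 at E18.5, a 3.5-fold difference (1.81, adjusted p = 4.55e-09), and at P84 it was 197 ± 22.1 (n = 4), with a log2 change of 1.56 from E18.5 (adjusted p = 1.27e-08). Most genes differed between these ages, 80.9% in cortex against forebrain, 81.5% in adult and 82.8% in P84 against E18.5 hippocampus, and 82.4% and 81.1% did not overlap in the first 2 of these. The median of all genes was itself 0.139, 0.12 and 0.129 above 0.

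Dio2 was higher in adult cortex than in E18.5 forebrain, at 1363, 1554 and 1662 against 364, 421 and 365 (log2 change 1.99, adjusted p = 7.59e-11). In hippocampus it was higher in adults than at E18.5 by 0.53 (adjusted p = 0.00127), and at P84 the log2 change of 0.21 did not pass (adjusted p = 0.124), although both other Dio2 probe sets were higher at P84, by 1.10 (adjusted p = 6.36e-06) and 1.06 (adjusted p = 9.99e-06). Hr was higher in adult cortex by 1.41 (adjusted p = 6.76e-08), in adult hippocampus by 0.82 (adjusted p = 6.34e-05) and in P84 hippocampus by 0.47 (adjusted p = 0.00472). With quantile normalization the P84 value of Hr turned to -0.17 (adjusted p = 0.322), and that in adult hippocampus was 0.19 (adjusted p = 0.286). The second Hr probe set, 1422110_at, had MC means of 57.4 in E18.5, 151 in adult and 179 in P84 hippocampus. It averaged 70.3 in E18.5 forebrain and 211 in adult cortex.

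No further rise of Slco1c1 was called after E18.5. In hippocampus it was lower in adults than at E18.5, with a log2 change of -0.53 (adjusted p = 8.61e-05), and lower at P84 with -0.58 (adjusted p = 1.43e-05), and without scaling these were -0.19 (adjusted p = 0.355) and -0.12 (adjusted p = 0.546). In adult cortex against E18.5 forebrain its log2 change of -0.07 did not pass, nor did that of Crym, 0.17. Thra again depended on the probe set. In adult cortex against E18.5 forebrain 1454675_at fell with a log2 change of -0.54 (adjusted p = 1.78e-05, and -0.17 at 0.0535 with quantile normalization), 1426997_at rose by 0.62 (adjusted p = 0.000207), and 1443952_at changed by 0.08 (adjusted p = 0.505).

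Between tissues of one age, Crym was higher in the hippocampus at both ages. It read 7078, 5101 and 3949 in E18.5 hippocampus against 1788, 2218 and 1707 in forebrain (2.76-fold, log2 change 1.47, adjusted p = 1.64e-05). In adults it read 6485, 5588 and 6221 in hippocampus against 2215, 2160 and 2023 in cortex (2.86-fold, log2 change 1.51, adjusted p = 6e-06). The tissues did not overlap at either age. Between tissues 20.6% of genes were called at E18.5 and 16.4% in adults, and 38.7% and 29.5% did not overlap.

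Dio2 differed between tissues in opposite directions at the 2 ages. At E18.5 it was higher in hippocampus than in forebrain by 0.97 (adjusted p = 4.22e-05), and in adults it was lower in hippocampus than in cortex, with a log2 change of -0.48 (adjusted p = 0.0163). The adult call was lost without hippocampus replicate 3 (adjusted p = 0.0528), cortex replicate 2 (0.0529) or cortex replicate 3 (0.0717) and on the deposited scale (0.0866). Whether the 2 tissue differences differed from each other was not tested, and one tissue was labelled forebrain and the other cortex. Slco1c1 was higher in E18.5 hippocampus by 0.37 (adjusted p = 0.0117), a call lost without hippocampus replicate 3 (0.0562), forebrain replicate 1 (0.0617) or forebrain replicate 3 (0.0517), and on the deposited scale the change was 0.16 (0.634).

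Hr was lower in adult hippocampus than in adult cortex, at 238, 197 and 227 against 384, 457 and 457 (1.96-fold, log2 change -0.97, adjusted p = 0.000106). Thra (1454675_at) was higher in adult hippocampus by 0.47 (adjusted p = 0.000718), while 1426997_at and 1443952_at gave -0.17 and -0.13 without passing. Thrb was lower in adult hippocampus with a log2 change of -0.50 (adjusted p = 0.0405), and its call was lost on leaving out any one of the 6 arrays compared, at adjusted p from 0.0572 to 0.144, and on the deposited scale (0.148). P84 and adult hippocampus gave no call for a member (9.84% of all genes called), the smallest p being that of Dio2 (log2 change -0.32, unadjusted p = 0.0194, adjusted p = 0.118, limma).

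Genes that respond to thyroid hormone and other genes of the pathway also differed between ages in MC brain, where most genes did. Of all genes tested, 30.2% were higher and 23.9% lower in E18.5 forebrain than at E14.5, and 44.8% higher and 36.1% lower in adult cortex than in E18.5 forebrain. From E14.5 to E18.5 forebrain 11 of 15 responding genes rose and none fell, led by Klf9 (3.31), Camk4 (1.68), Nrgn (2.79) and Rasd2 (1.97), and from E18.5 forebrain to adult cortex 13 rose and 1 fell of 15, with the myelin gene Mbp at 6.97, Nefh at 4.30, Klf9 at 4.17 and Dbp at 3.02. Other transporters rose in 5 of 9 and fell in none by E18.5, with Slco1a4, an endothelial organic anion transporter gene, at 1.99, and in adult cortex against E18.5 forebrain 5 rose and 3 fell, Slc7a8 at 2.17 and Slco1a4 at 3.33 among those that rose. Receptor partners rose in 3 and fell in 4 of 13 by E18.5, and rose in 3 and fell in 8 of 13 in adult cortex, where Crebbp was at -0.78 and Ep300 at -0.85.

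Over all 19 groups the members differed in how far their levels ranged. The highest group mean of Dio2 was 30.9 times the lowest (MC+RW adult cortex, 1777, against MC at E14.5, 57.5), that of Crym 27.7 times (VPA at P84, 6872, against VPA at E14.5, 248) and that of Slco1c1 11.1 times (VPM E18.5 hippocampus, 2147, against VPA at E14.5, 194). Hr ranged over 10.03 times, Thrb over 7.62 times and Thra over 2.17 times. The lowest place in the order was held by an E14.5 group for each of the 6 genes. In the order of group means, the difference between neighbours exceeded their spread in 4 of 18 steps for Crym, 5 for Dio2, 4 for Slco1c1, 4 for Thrb, 2 for Hr and 2 for Thra, so most neighbouring groups were not separated. For Crym those steps lay between E18.5 hippocampus and E18.5 forebrain or adult cortex, below E18.5 forebrain, and between the 3 treatments at E14.5.

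The genes most like each member were taken as the 3 with the highest Pearson r of log2 group means, among 11607 genes and over 19 group means that share age and tissue. For Slco1c1 these were Emp2 (0.9801), Ank3 and Fmo1, and for Dio2 Kcnk1 (0.9821), Abca9 (0.9796) and Itih5 (0.9769). For Crym they were Fgf13 (0.9726), Npr3 and St6galnac5. Thrb was most like Trpm2 (0.9925), Lgr5 and Aif1, Hr most like Nxph3 (0.9561), Pde10a and Plcb4, and Thra most like Rap2b (0.9358), Birc6 and Grp.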

How the data were processed

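Total RNA of 59 mouse brain samples was hybridised to Affymetrix GeneChip arrays. The deposited values are linear intensity per probe set, made with GCOS per the submitters' processing notes. How GCOS computed and scaled the signal was not stated in the sources used here. For every array, signals were multiplied to bring the mean with 2% trimmed from each end to 500, then floored at 32 and put on a log2 scale, so differences of dim genes are understated. Of 45101 probe sets, 34958 had 1 gene symbol, 932 several and 9211 none, and 34754 of the first were matched to current symbols by Entrez identifier. Each gene was tested with its probe set of highest mean signal, if at least 100 in 3 fitted arrays (4 at P84). Differences were tested with limma 3.58.1 (lmFit, contrasts, eBayes with an intensity trend) in R 4.3.3, over all genes tested, with Benjamini-Hochberg adjustment and a threshold of 0.05, in 31 comparisons. The fit was tested on simulated data. Other probe sets come from a fit on every probe set.

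The members and gene lists were chosen with earlier results of these data known. All measured members are plotted in all groups, while the text gives only some of them in the comparisons after E14.5. Named as well are up to 4 genes of a list with the smallest adjusted p, and the 3 most alike genes. Other settings tried were no scaling (the values as deposited), quantile normalization, no filter, a filter at 200, no trend, log2 of signal plus 32, a sex covariate inferred from the arrays (12 of 27 embryo arrays had a female pattern, and 0 of 32 adult arrays), a replicate block, the 2 groups alone, and leaving out each array. Gene coordinates are RefSeq's, GRCm38.p6. No pair of arrays among 1711 was identical.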

Additional observations from a re-analysis of the deposited data

Results flagged for a closer look

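Dio2 in MC hippocampus at P84 had 1 array far from the others with probe set 1418937_at: replicate 3 read 932.7, against 846 to 856 in the other 3, and its gap was 0.891 of the range, above Dixon's 95% critical value for 4 arrays. It was the only one of 22 probe-set groups of 4 arrays examined, and chance flags about 1 in 20.

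The effect of a compound differed between E14.5 telencephalon and E18.5 forebrain, by limma's test of the difference in one model, in 5 cases. For VPM the E14.5 effect minus the E18.5 effect was 1.322 for Dio2, 1.059 for Slco1c1 and 0.981 for Crym (log2). For VPA it was -1.237 for Hr and -0.9099 for Crym. VPM replicate 3 at E14.5, with its choroid plexus signal, is in the VPM values, and without it they were 1.292, 0.9368 and 0.8117.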

How the results depend on the processing

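The number of member genes called stayed within 1.5 times in 272 of 281 recomputations that kept all arrays. On the deposited scale it was 1 (3 after scaling) for VPA against MC and 2 (5 after scaling) for VPA against VPM at E14.5, where 3 members were tested, 5 (3) for P84 against E18.5 hippocampus, 3 (5) for adult hippocampus against cortex, 1 (2) for the difference of the VPA effect and 0 (3) for that of the VPM effect. With a filter at 200 it was 3 for VPA against VPM and 1 for the difference of the VPA effect. With the arrays of the 2 groups alone it was 1 (0 in the joint fit) for P84 against adult hippocampus. Leaving out 1 array gave 2 to 3 for VPA against MC, 1 to 3 for VPM against MC (1 without VPM replicate 3), 3 to 5 for VPA against VPM (3 without VPM replicate 1), 3 to 5 for adult hippocampus against cortex and 0 to 1 for P84 against adult hippocampus. Single genes kept their direction except Hr at P84 against E18.5 hippocampus, at -0.1665 with quantile normalization. The cause of these changes was not tested.

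Replicate numbers are shared between groups, but deviations of same-numbered arrays correlated between -0.286 and 0.39 and in no comparison all over 0.1, so the numbers do not pair samples. With a replicate block, 3 members were called in VPA against MC at E14.5, as without it, and no member count moved by over 1.5 times.

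Counts over all genes moved more, and are given here with the scaled count in parentheses. On the deposited scale, VPM against MC at E14.5 gave 457 calls, 34.8% of them higher (1279 and 48.9%). E18.5 forebrain gave 17 (248) for VPA against MC, where no filter gave 165, no trend 161 and the 2 groups alone 158. It gave 13 (61) for VPA against VPM, where these gave 11, 10 and 19, and the sex covariate 45 with 33.3% higher (44.3%). E18.5 hippocampus gave 43 (0) for VPA against MC and 40 (0) for VPA against VPM, P84 gave 29 (0) and the difference of the VPA effect between E18.5 tissues 40 (0). The E14.5 minus E18.5 effect gave 1078 (4603) for VPA and 17 (425) for VPM. In MC arrays the share of higher calls was 91.6% (55.8%) for E18.5 forebrain against E14.5, 68.2% (54.8%) for adult and 72.7% (54.5%) for P84 against E18.5 hippocampus. It was 12.6% (47.6%) of 1476 (2895) calls between E18.5 tissues, 34.4% (47.1%) of 946 (2302) between adult tissues and 71.7% (42.3%) of 127 (1382) for P84 against adult hippocampus. Leaving out 1 array gave 35 to 239 (248) for VPA against MC and 0 to 45 (61) for VPA against VPM in E18.5 forebrain, 191 to 464 (425) for the difference of the VPM effect, and 0 to 133 (2) for MC+RW against MC in adult cortex, the highest without MC+RW replicate 3. Without scaling the median of all genes was 0.407 for E18.5 forebrain against E14.5, 0.5 for P84 against E18.5 hippocampus and between -0.185 and 0.369 in the other comparisons. Dio2, Thrb and Hr at E14.5 lay near the floor of 32, which limits the size of difference measured there.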
